A study of Mus musculus with 6 samples.

Results

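Reference genes are genes whose RNA is taken as a steady yardstick when other genes are compared between samples. The 8 described here are Rpl13a, Gusb, Hprt, Hsp90ab1, Tbp, Ppia, Nono and B2m, all widely used in this role. They were chosen by their names, as 8 of the 15 probes that the files pair with a RefSeq transcript, out of 60915 probes outside the controls. Each gene had 1 probe, printed as 20 spots on every array. The spleens came from female C57BL/6 mice aged 12 weeks. In 3 mice experimental autoimmune encephalomyelitis (EAE), a model of multiple sclerosis, had been induced with a peptide of myelin oligodendrocyte glycoprotein (MOG, 2 mg/mL) and pertussis toxin (200 ng), and 3 control mice had received phosphate-buffered saline (PBS). The sample titles and the protocol name different residues of the peptide, and whether the toxin was also given to control mice is not given in the sources used here. RNA of each whole spleen was labelled with Cy3 from random primers and hybridised to its own 1-colour array, so n is 3 mice per group.

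A reference gene serves its purpose when the ratio of its RNA to the total does not move with the condition under study. A set of reference genes is often drawn from unrelated processes, so that a response of 1 pathway does not shift all of them. The spleen in EAE is a lymphoid organ responding to immunization, in which lymphocytes divide, activate and leave for the nervous system. In RNA of whole spleen, fewer cells of a type and less RNA per cell cannot be told apart. The lists of B cell, T cell, myeloid and plasma cell markers had 0 named probes and the erythroid list 1 of 4 (Tfrc), so the tissue could not be checked against its defining markers.

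The arrays differed in brightness. The PBS arrays had a 75th percentile of the signal between 429 and 568 and the EAE arrays one between 278 and 394, and log2 levels below are relative to this percentile unless another scale is named. The 3 PBS arrays, EAE 1 and EAE 2 were scanned together and EAE 3 apart, and slide position followed the groups. Control spots for GAPDH, whose 3′ minus 5′ difference is used as a sign of RNA integrity, gave log2 differences of 1.05 to 1.17 in PBS and 1.20 to 1.49 in EAE, without overlap. The same difference at control spots for Pgk1, whose 5′ spots were dim, overlapped, with 9.46 to 9.55 on PBS arrays against 9.27 to 9.79 on EAE arrays. The part of brightness, scan and transcript ends in the values of the 8 genes was not tested. Of the 960 spots of these genes over the 6 arrays all 960 were well above background and none was saturated, the brightest gene mean lying at 30.1% of the saturation signal. Outlier flags removed 21 spots, 10 of them on EAE 3.

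None of the 8 genes differed between EAE and PBS spleens in limma's test. Of the 8, 5 had a higher mean in EAE and 3 a lower one, with log2 differences from -0.26 (Tbp) to 0.44 (Gusb) and a median of 0.08, against -0.02 over all tested probes. Adjusted p-values were 0.255 to 0.829, so 0 of the 8 were called, against 8.8% of the 41178 tested probes. Before adjustment 0 of the 8 had a p under 0.05 as well, a share not computed for all tested probes. The missed threshold does not show that the genes were constant. The 95% intervals of all 8 lay within a 2-fold change in either direction, and those of 2 genes, Rpl13a and B2m, within a 1.5-fold change.

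**Figure D1:**
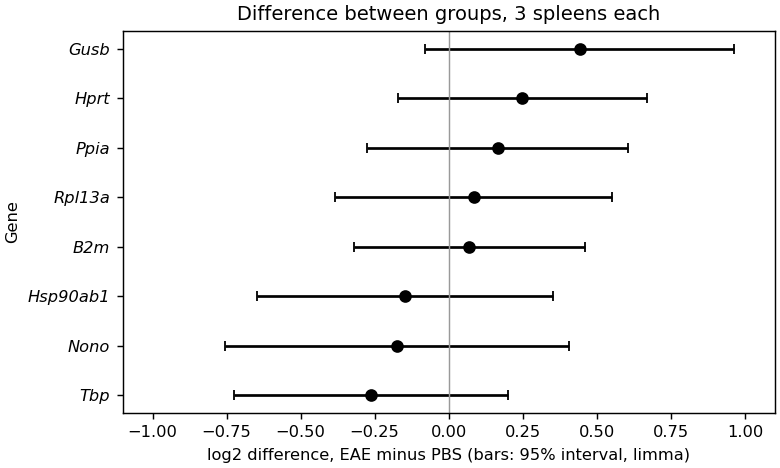
Difference between 3 EAE and 3 PBS spleens for each of the 8 genes on the log2 scale (x axis, EAE minus PBS, levels relative to the 75th percentile), with points for the estimate and bars for the limma 95% interval. All bars cross 0, and they run from -0.76 (Nono) to 0.96 (Gusb).

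Among the genes of protein synthesis and folding, Rpl13a encodes a protein of the large ribosomal subunit. Its log2 level was 6.02, 5.68 and 5.93 on PBS 1 to 3 and 6.12, 6.06 and 5.70 on EAE 1 to 3. The groups overlapped, with PBS 2 and EAE 3 lowest. The means were 5.88 ± 0.18 in PBS and 5.96 ± 0.23 in EAE (SD, n = 3), a log2 difference of 0.08 ± 0.20 (SE, 95% interval -0.38 to 0.55, limma adjusted p = 0.827). The reference annotation used here also lists a pseudogene named after Rpl13a, and the probe was not matched to sequence, so signal from a copy cannot be told apart. Probes of the other genes were not matched to sequence either, and pseudogenes under other names were not counted.

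Ppia encodes cyclophilin A, a peptidyl-prolyl isomerase that helps proteins fold and binds cyclosporin. In PBS spleens its log2 level was 8.88, 8.69 and 8.80, and in EAE spleens 9.21, 8.86 and 8.80. EAE 1 stood above the other 5 arrays, and EAE 2 and EAE 3 lay among the PBS values. The means were 8.79 ± 0.10 and 8.96 ± 0.22 (SD, n = 3), a difference of 0.17 ± 0.19 (SE, interval -0.28 to 0.61, limma adjusted p = 0.620).

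Hsp90ab1 encodes the constitutive cytosolic form of the chaperone HSP90. The PBS spleens had log2 levels of 6.17, 5.74 and 6.12 and the EAE spleens 6.13, 5.84 and 5.63. The groups overlapped over most of their range. The means were 6.01 ± 0.23 and 5.87 ± 0.25 (SD, n = 3), a difference of -0.15 ± 0.21 (SE, interval -0.65 to 0.35, limma adjusted p = 0.707).

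Among the genes that act in the nucleus, Tbp encodes the TATA-binding protein, a core factor of transcription initiation. The PBS spleens gave log2 levels of 2.09, 1.69 and 1.98 and the EAE spleens 1.80, 1.72 and 1.45. PBS 2 lay below EAE 1 and EAE 2, and the other PBS arrays lay above all EAE arrays. The means were 1.92 ± 0.21 and 1.66 ± 0.19 (SD, n = 3), a difference of -0.26 ± 0.20 (SE, interval -0.72 to 0.20, limma adjusted p = 0.440). Nono encodes an RNA- and DNA-binding protein of nuclear paraspeckles. The PBS arrays had log2 levels of 3.97, 3.40 and 3.77 and the EAE arrays 3.94, 3.27 and 3.41, so each group held high and low arrays. The difference was -0.18 ± 0.25 (SE, interval -0.76 to 0.40, limma adjusted p = 0.697), from 3.71 ± 0.29 to 3.54 ± 0.35 (SD, n = 3).

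Among the enzymes of turnover and salvage, Gusb encodes beta-glucuronidase, a lysosomal hydrolase. In the PBS mice its log2 level was 3.53, 3.22 and 3.52, and in the EAE mice 4.22, 3.81 and 3.57. The groups did not overlap, but the lowest EAE value (EAE 3, 3.57) lay close to the highest PBS value (PBS 1, 3.53). The means were 3.42 ± 0.18 and 3.87 ± 0.33 (SD, n = 3), a difference of 0.44 ± 0.22 (SE, interval -0.08 to 0.96, limma adjusted p = 0.255). Hprt encodes hypoxanthine phosphoribosyltransferase, which returns purine bases to the nucleotide pool. PBS spleens had log2 levels of 6.27, 5.99 and 6.23 and EAE spleens 6.56, 6.38 and 6.30, again without overlap. The difference was 0.25 ± 0.18 (SE, interval -0.17 to 0.67, limma adjusted p = 0.423), from 6.16 ± 0.15 to 6.41 ± 0.13 (SD, n = 3).

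B2m encodes beta-2-microglobulin, the light chain of MHC class I, and is the member with an immune function. Levels on the log2 scale were 8.43, 8.32 and 8.40 for the PBS spleens and 8.55, 8.46 and 8.35 for the EAE spleens. EAE 1 and EAE 2 lay above all PBS arrays and EAE 3 among them. The means were 8.38 ± 0.058 and 8.45 ± 0.10 (SD, n = 3), a difference of 0.07 ± 0.17 (SE, interval -0.32 to 0.46, limma adjusted p = 0.829). Groups thus did not overlap for 2 of the 8 genes, Gusb and Hprt, against 33.0% of all tested probes. The directions of Rpl13a, Ppia, Hprt and B2m turned under quantile normalization and cyclic loess, while Gusb stayed higher and Tbp, Hsp90ab1 and Nono lower under all 19 alternatives. Some of the 19, such as the filters on dim probes, cannot change a difference.

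**Figure D2:**
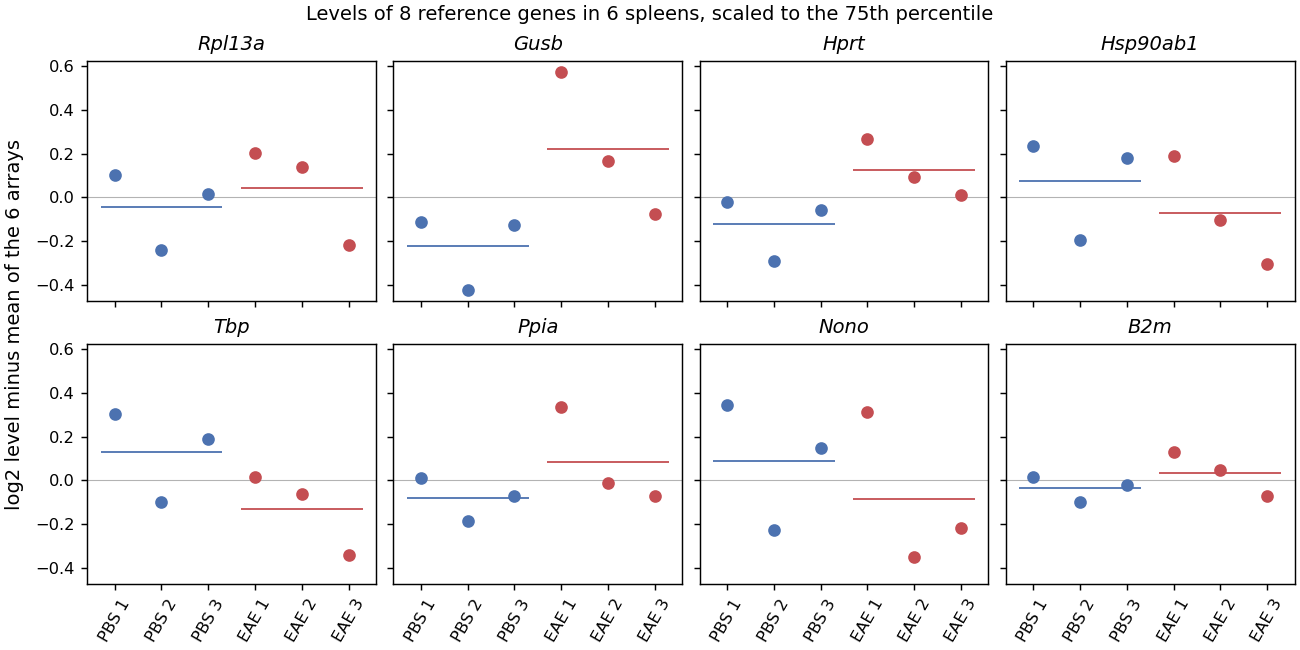
Level of each of the 8 genes on the 6 arrays (y axis, log2 level minus the gene's mean over the arrays; blue points PBS 1 to 3, red points EAE 1 to 3, horizontal lines group means). Gusb and Hprt are the genes without overlap, and EAE 1 lies above the gene's mean for all 8 genes and PBS 2 below it for all 8.

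Signals without any scaling were lower on the dimmer EAE arrays for most of the 8 genes. Those of every EAE array lay below every PBS array for 7 of the 8 genes, against 51.1% of tested probes. The exception was Gusb, with signals of 5721, 5302 and 4922 for PBS spleens and 5175, 4621 and 4669 for EAE spleens. Its highest unscaled signal was 1.24 times its lowest, against 2.44 times for Nono and 2.18 times for Tbp. The log2 difference of unscaled signals ran from -0.84 (Tbp) to -0.14 (Gusb). Gusb thus had the smallest SD of the 8 on the unscaled log2 signal (0.12) and the largest after scaling (0.34).

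Spread over all 6 arrays was smallest for B2m, with an SD of 0.083 on the log2 scale, and 0.401% of tested probes had a lower one. Ppia, Hprt and Rpl13a followed with 0.18, 0.18 and 0.19, Hsp90ab1 and Tbp had 0.23 each, Nono 0.30 and Gusb 0.34. All 8 lay below the median of tested probes, 0.35, and the share of tested probes with a lower SD was 47.7% for Gusb and 40.0% for Nono. Tested probes include dim ones. Among probes above background on all 6 arrays, as these genes are, the median was 0.32, and 54.8% had a lower SD than Gusb and 46.5% than Nono. Each value of the 8 genes averages up to 20 spots, while most other probes were printed once (61200 spots for 60915 probes). Averaging lowers technical error, and its part in this and the other comparisons with tested probes was not tested. The standard error over the spots of a gene on an array was at most 0.017, which covers technical error of the spots alone. Within groups the SD was larger in EAE than in PBS for 6 of the 8 genes, Hprt and Tbp being the exceptions, and for 75.7% of tested probes.

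On some arrays most of the 8 genes deviated the same way. Their mean deviation from their own averages was 0.11, -0.22 and 0.03 on PBS 1 to 3 and 0.25, -0.01 and -0.16 on EAE 1 to 3. All 8 lay above their average on EAE 1, 6 on PBS 1, 1 on EAE 3 and none on PBS 2. PBS 3 and EAE 2 were evenly split, with 4 of 8 above. The array mean of the 8 held 58.0% of their sum of squares around the gene means, a share not computed for other probes. With arrays scaled to the mean of the 8 in place of the 75th percentile, the median SD of the genes was 0.12 against 0.21, and 0.30 on unscaled signals. The lower value follows in part from the scaling itself, since the 8 genes set it.

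The ratio of 2 genes on the same array does not depend on a constant scaling of that array, so ratios show which genes kept pace with each other. Over the 28 pairs the SD of the log2 ratio across the 6 spleens ran from 0.083 for Hprt over Ppia to 0.40 for Gusb over Tbp, with a median of 0.20. Over all pairs of tested probes the median was 0.55, and 3.99% of those pairs had an SD below 0.20. For pairs of probes above background on all 6 arrays the median was 0.49, and 5.52% had an SD below 0.20. All 28 lay below the median of all pairs, most of which compare probes printed once. In 23 of the 28 the SD was larger among EAE spleens than among PBS spleens, a share not computed for other pairs. Of single tested probes, 75.7% had a larger SD in EAE.

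**Figure D3:**
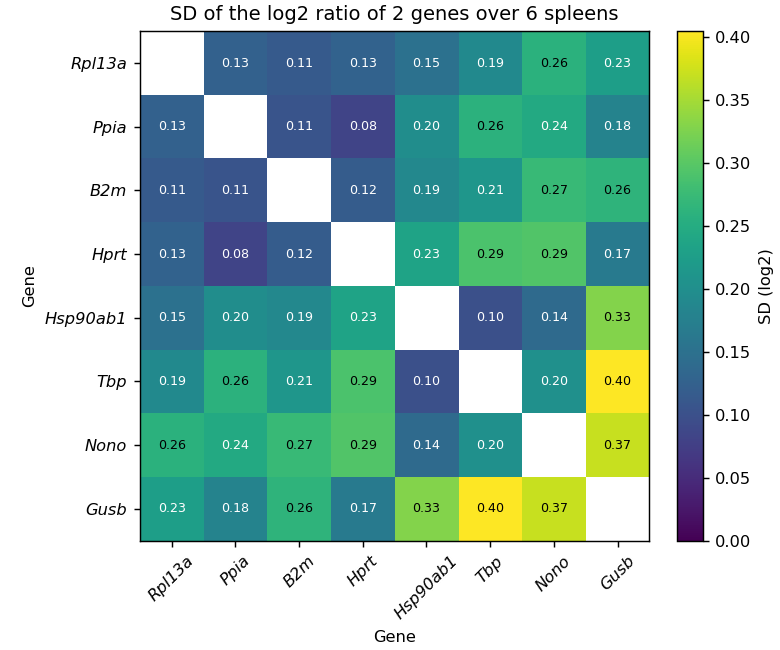
SD over the 6 spleens of the log2 ratio of each pair of the 8 genes (rows and columns, colour scale in log2 units, symmetric about the diagonal). Low values join Rpl13a, Ppia, B2m and Hprt with each other, and Hsp90ab1 with Tbp, Nono and Rpl13a (0.098, 0.14 and 0.15), while Gusb against Tbp has the highest value, 0.40.

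Some genes kept closer to each other than to the rest, without a clean split. Rpl13a, Ppia, B2m and Hprt had ratio SDs of 0.083 to 0.13 with each other, and Hsp90ab1, Tbp and Nono 0.098 to 0.20 with each other. The 12 ratios between the first set and the second had SDs of 0.15 to 0.29, which overlap those within the second set. Rpl13a over Hsp90ab1 (0.15), Hsp90ab1 over B2m (0.19), Rpl13a over Tbp (0.19) and Hsp90ab1 over Ppia (0.198) were steadier than Tbp over Nono (0.203). Gusb was nearest to Hprt (0.17) and Ppia (0.18) and farthest from Hsp90ab1 (0.33), Nono (0.37) and Tbp (0.40). These sets were formed after the values were seen and are a description.

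The promoters of the steadiest and the least steady pair are shown so that the genes behind these ratios can be compared by sequence. RefSeq's promoter table matched 7 of the 8 genes (all but Hsp90ab1). Each line holds the 250 bases upstream of the annotated start, 5′ to 3′ on the gene's strand, in GRCm38.p6: Hprt at chrX:52987828-52988077 (+ strand), Ppia at chr11:6415617-6415866 (+ strand), Gusb at chr5:130003050-130003299 (- strand) and Tbp at chr17:15499638-15499887 (+ strand). Capitals mark matches on either strand to TATAAA (the TATA box), CCAAT (the CCAAT box), GGGCGG (a GC box) or CCGGAA (an ETS core).
Hprt: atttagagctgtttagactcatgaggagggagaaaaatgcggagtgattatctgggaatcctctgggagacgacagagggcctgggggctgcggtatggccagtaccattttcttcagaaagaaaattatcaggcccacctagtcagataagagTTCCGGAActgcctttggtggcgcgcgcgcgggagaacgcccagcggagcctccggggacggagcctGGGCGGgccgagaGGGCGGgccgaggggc
Ppia: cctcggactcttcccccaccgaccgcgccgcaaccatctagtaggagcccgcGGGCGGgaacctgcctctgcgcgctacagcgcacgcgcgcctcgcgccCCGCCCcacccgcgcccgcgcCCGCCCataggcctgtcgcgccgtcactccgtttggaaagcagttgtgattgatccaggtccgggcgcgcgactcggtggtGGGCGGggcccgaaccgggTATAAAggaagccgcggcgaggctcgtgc
Gusb: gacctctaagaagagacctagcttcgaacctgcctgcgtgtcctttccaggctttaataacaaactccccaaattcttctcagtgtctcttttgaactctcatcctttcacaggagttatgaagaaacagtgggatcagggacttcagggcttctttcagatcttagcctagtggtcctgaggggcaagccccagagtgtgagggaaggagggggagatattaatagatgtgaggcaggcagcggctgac
Tbp: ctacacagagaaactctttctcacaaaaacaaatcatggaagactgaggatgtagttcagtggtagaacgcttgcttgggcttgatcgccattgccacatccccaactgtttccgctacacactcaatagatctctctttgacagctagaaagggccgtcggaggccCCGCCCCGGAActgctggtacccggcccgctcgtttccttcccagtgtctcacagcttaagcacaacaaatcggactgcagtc
Ppia held 1 TATAAA, 29 bases before the start, and 4 GGGCGG matches. Hprt held 2 GGGCGG and 2 CCGGAA matches, the latter overlapping as a palindrome. Tbp held 1 GGGCGG and 1 CCGGAA match, which overlap, and Gusb held no match to any of the 4 motifs. Over 32851 promoters of the same length, 12.4% held TATAAA, 33.8% CCAAT, 32.7% GGGCGG and 12.0% CCGGAA. The GC content was 59.6% for Hprt, 72.4% for Ppia, 49.6% for Gusb and 52% for Tbp, with a median of 52.4% over all promoters. A match is a run of letters and not a measured site, and no measure of promoter activity was made in these spleens.

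Of the 28 ratios, 16 (57.1%) did not overlap between EAE and PBS, against 35.2% of all pairs of tested probes. Among pairs of probes above background on all 6 arrays the share was 38.0%. The 28 pairs share genes and arrays, so the share has no test. Each of the 16 had an exact two-sided permutation p of 0.1, the smallest that 3 against 3 arrays allow, and 0.175 after adjustment over the 28. Gusb took part in 6 of the 16, Hprt and Tbp in 5 each, Rpl13a and Hsp90ab1 in 4 each, Ppia and B2m in 3 each and Nono in 2. Some ratios had a modest shift with a small spread within groups. The ratio of Rpl13a over Tbp, in deviations from its mean, took values of -0.20, -0.14 and -0.18 in PBS spleens and 0.19, 0.20 and 0.12 in EAE spleens. Its log2 difference was 0.35, with SDs of 0.030 in PBS and 0.044 in EAE, and it was not called.

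Gusb over Tbp had the largest difference. In deviations from its mean, its log2 ratio took values of -0.42, -0.33 and -0.32 in PBS spleens and 0.56, 0.23 and 0.26 in EAE spleens. The gap between the groups was wider than the range within either one. With arrays scaled to Tbp, Gusb was 1.63-fold higher in EAE (95% interval 1.23 to 2.16). The log2 ratio differed by 0.70 ± 0.17 (SE, 3 mice per group, limma adjusted p = 0.0465), where 11.2% of tested probes were called. The same ratio turned, Tbp with arrays scaled to Gusb, had the same size and an adjusted p of 0.0645, where 8.45% of probes were called. This was the 1 ratio of the 28 called in either form. The limma adjusted p of a ratio covers the probes tested in 1 fit and not the choice among the 28 ratios in 2 forms. The direction held under all 18 alternatives, some of which, such as median scaling and the filters on dim probes, cannot change this ratio. The call was lost when any 1 array was left out (limma adjusted p = 0.0589 to 0.180). Within the shared scan, which equals leaving out EAE 3, it was lost as well (0.0847).

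Further ratios with Gusb or Tbp were large and not called. Gusb over Nono differed by 0.62 on the log2 scale, Gusb over Hsp90ab1 by 0.59 and Hprt over Tbp by 0.51. Their lower adjusted p of the 2 scalings (limma) was 0.0888, 0.0796 and 0.0728. By contrast Hprt over Ppia, the steadiest ratio, deviated by -0.03, -0.11 and 0.01 in PBS spleens and by -0.06, 0.11 and 0.08 in EAE spleens, and its log2 difference was 0.08 (interval -0.29 to 0.46). Rpl13a over B2m differed by 0.01 (interval between folds of 0.779 and 1.31) and Hsp90ab1 over Nono by 0.03 (interval between folds of 0.670 and 1.55).

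**Figure D4:**
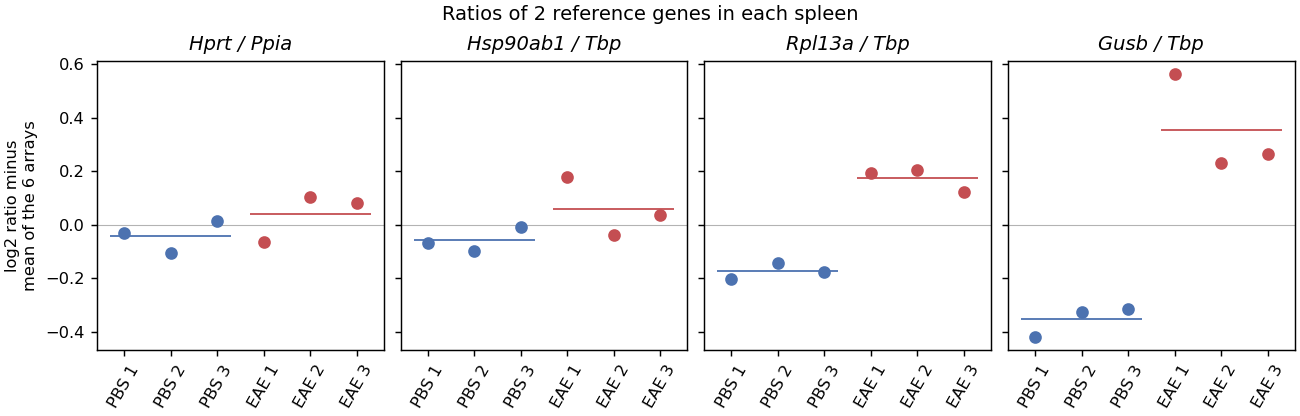
Log2 ratios of 4 gene pairs in each spleen, as deviations from the mean of the 6 arrays (y axis, log2; blue points PBS 1 to 3, red points EAE 1 to 3, lines group means). Hprt over Ppia and Hsp90ab1 over Tbp overlap between the groups, while Rpl13a over Tbp and Gusb over Tbp do not, with log2 differences of 0.35 and 0.70.

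The stability measure M, used to choose reference genes, is the mean SD of a gene's log2 ratios to the other genes of the set, so that a lower M is steadier. M was 0.17 for Rpl13a and for Ppia, 0.18 for B2m, 0.19 for Hprt and for Hsp90ab1, 0.24 for Tbp, 0.25 for Nono and 0.28 for Gusb. Neighbours in this order from Rpl13a to Hsp90ab1 differed by less than the SD of each gene's 7 ratio SDs (0.056 to 0.086). Leaving out the gene with the highest M in turn removed Gusb, Nono, Tbp, Hsp90ab1, Rpl13a and B2m and left Hprt and Ppia. The mean M fell from 0.21 with 8 genes to 0.11 with 4, which follows from leaving out the gene with the highest M at each step. The order differed within groups. Within PBS alone M was lowest for Rpl13a (0.069), Hprt (0.074), Gusb and Tbp (0.077 each), and highest for Ppia (0.10), B2m (0.13) and Nono (0.14). Within EAE alone it was lowest for Hsp90ab1 (0.12) and highest for Rpl13a (0.16), Gusb (0.17) and Nono (0.24). Gusb, highest over all 6 spleens, was thus among the lower values within PBS, and its ratios to 6 of the other 7 genes did not overlap between the groups.

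The order depended in part on the processing and on single arrays. Over 12 settings, the reported one and 11 alternatives, Rpl13a was among the 3 lowest M in 12 and Ppia in 11, while the lowest was Rpl13a in 5, Ppia in 5 and B2m in 2. Gusb had the highest M in 10, and Nono in the other 2, without PBS 2 and without EAE 1. The steadiest pair changed more, being Hprt and Ppia in 6 settings, Hsp90ab1 and Tbp in 4, Ppia and B2m in 1 and Rpl13a and Hprt in 1. The pair of Hsp90ab1 and Tbp led in the 4 settings with quantile normalization, cyclic loess or normexp, with ratio SDs of 0.039 to 0.083. Gusb was in the least steady pair in all 12 settings.

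The choice of reference gene changed how many probes were called and the balance of higher and lower calls. Scaling to 1 gene shifts all probes of an array alike, so the median difference of all probes moves opposite to that gene's own difference by construction. With the 75th percentile 3622 of the tested probes were called, 2523 higher and 1099 lower in EAE (69.7% higher). With arrays scaled to Tbp 4614 were called and 93.5% were higher, and with Gusb 3480 were called and 28.2% were higher. Over all probes tested, the median log2 difference moved to 0.24 with Tbp and to -0.46 with Gusb. Scaling to Nono gave 1782 calls (92.1% higher), to Hsp90ab1 2571 (90.2%), to Rpl13a 2052 (71.2%), to B2m 3534 (63.8%), to Ppia 2600 (60.2%) and to Hprt 3888 (40.9%). The mean of all 8 genes gave 2314 calls, 75.4% of them higher, with a median difference of -0.07.

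**Figure D5:**
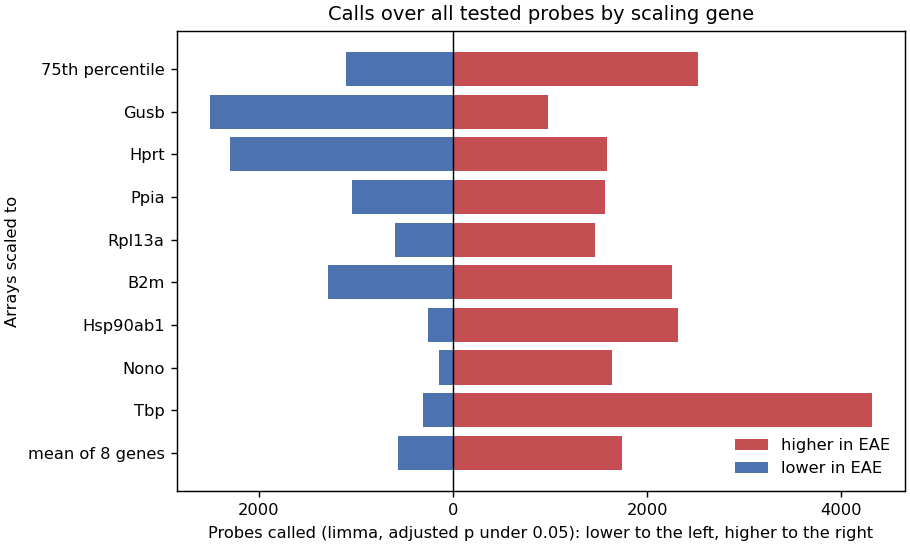
Number of tested probes called between EAE and PBS (x axis, limma adjusted p under 0.05; blue bars to the left lower in EAE, red bars to the right higher) with arrays scaled to the 75th percentile, to each of the 8 genes and to their mean (rows). Lower probes outnumber higher ones with Gusb (2498 against 982) and Hprt (2299 against 1589), and higher ones outnumber lower ones in the other 8 rows.

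These shares depended on single arrays, and most so for Gusb. Leaving out each array in turn, the percent of calls that were higher ran from 13.4 (without EAE 3) to 78.4 (without PBS 1) with Gusb, from 30.7 (without EAE 2) to 76.4 (without PBS 2) with Hprt and from 40.2 (without EAE 2) to 82.9 (without PBS 2) with Ppia. With Tbp it stayed at 87.8 to 96.6, with Hsp90ab1 at 82.3 to 95.2 and with Nono at 77.9 to 96.8. The number of calls moved as well, with Gusb from 134 without PBS 1 to 7023 without EAE 3.

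The log2 difference of Actb was below 0 with each of the 8 genes as the reference, while its call depended on the gene. This gene of beta-actin, itself often used as a reference, had a log2 difference of -1.39 (limma adjusted p = 0.0116) with the 75th percentile and of -1.12 (Tbp, adjusted p = 0.0497) to -1.83 (Gusb, 0.0289) over the 8 genes. Scaling to a gene subtracts that gene's own difference, which ran from -0.26 (Tbp) to 0.44 (Gusb). The shared direction therefore follows from the value of -1.39 by construction, and the 8 are not separate checks. The call was lost with Hsp90ab1 (-1.24, adjusted p = 0.0755) and with Nono (-1.21, 0.159). With the 75th percentile it was also lost without PBS 2 (-1.32, limma adjusted p = 0.0639) and without PBS 3 (-1.36, 0.0502). Of the 6 fits with an array left out, Actb was called in 3 each with B2m, Gusb and Hprt, 2 with Ppia, 1 with Rpl13a and 0 with Tbp, Hsp90ab1 and Nono (lowest adjusted p = 0.0529, 0.0724 and 0.0880).

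Of 15 further genes in common use as references, 4 had a named probe, and 1 of these, Actb, was called, in the lower direction. Gapdh, the glycolytic dehydrogenase, had a log2 difference of 0.30 (limma adjusted p = 0.410), Tuba1b, an alpha-tubulin, 0.37 (0.256) and Tfrc, the transferrin receptor, -0.60 (0.269). Pgk1, also among the 15, had control spots only, which were not tested. Log2 levels of its 3′ spots were 6.02, 5.70 and 5.96 on PBS 1 to 3 and 7.13, 6.41 and 6.52 on EAE 1 to 3. These did not overlap, as was so for 33.0% of tested probes, while the unscaled signals of the 3′ spots overlapped. The 15 named probes are those of the 8 members and of 7 other genes, some of them dim. Among these, the probe whose level kept closest to a member over the 6 arrays was another member for 7 of the 8 genes. Rpl13a was nearest to B2m (ratio SD 0.11), B2m to Ppia (0.11), Ppia and Hprt to each other (0.083), Hsp90ab1 and Tbp to each other (0.098) and Nono to Hsp90ab1 (0.14). Gusb was nearest to Gapdh (0.14) and next to Tuba1b (0.15), and Tuba1b was also second nearest to Hprt (0.096). Among all tested probes, most without a gene name here, 0.613% (Nono) to 3.03% (Rpl13a) lay nearer still.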

How the data were processed

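RNA of 6 mouse spleens was measured on 1 array each. The authors deposited spot intensity from the scanner. Per the file headers, Feature Extraction 11.0.1.1 (Agilent; mm9 array design) had subtracted the background, with no scaling between arrays. The authors' deposited normalized table lacks the probes of the 8 genes and was not used. Groups came from the sample titles. From the processed signals, outlier-flagged spots were left out, log2 values were set relative to the array's 75th percentile over 61200 spots, and spots of a probe were averaged. Probes well above background on at least 3 arrays (41178) were fitted with limma 3.58.1 in R 4.3.3 (lmFit, eBayes, no covariates, two-sided, Benjamini-Hochberg at 0.05), tested on simulated data. Ratios were called from the same fit with arrays scaled to either gene. All 8 genes, the other reference genes with a named probe and each gene's nearest named probe were named. RefSeq names came from GRCm38.p6 tables. Genes and lists were chosen with earlier results of these data known. Alternatives changed the normalization, background correction (normexp), dim-probe filter, blocks, variance model, spot summary and arrays. The number of arrays limits the precision.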

Additional observations from a re-analysis of the deposited data

How the results depend on the processing

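The Gusb over Tbp alternatives, and the leave-one-out percent of calls higher by reference gene, were chosen after seeing the data. The count of 0 genes called held under all 19 alternatives. Gusb (0.16 to 0.59), Tbp (-0.38 to -0.16), Hsp90ab1 (-0.44 to -0.03) and Nono (-0.44 to -0.04) kept their direction in all 19. Among the 19, the filters, the replicate block and the trend and robust prior leave these differences unchanged by construction. The log2 differences of Rpl13a, Hprt, Ppia and B2m turned to -0.19, -0.016, -0.13 and -0.19 with quantile normalization, to -0.16, -0.012, -0.19 and -0.27 with cyclic loess, and to -0.18, -0.0022, -0.14 and -0.20 with normexp and quantile. Normexp alone turned Rpl13a to -0.0054 and B2m to -0.040, and moved the median of all tested probes to 0.14. With an array left out, Rpl13a ran from -0.016 (without PBS 2) to 0.21. The cause was not tested. Over the 11 alternatives the mean M was 0.19 to 0.22. With all arrays kept, 13 to 17 of the 28 ratios did not overlap. With an array left out 16 (without PBS 1) to 21 (without EAE 1) did not. Leaving out an array cannot make a separated ratio overlap, so those counts could not fall below the reported 16. The share over all pairs of tested probes was not computed for the alternatives. M of Nono was 0.18 without EAE 2, against 0.25 as reported and 0.24 to 0.28 under the other alternatives. Probes called numbered 2257 with no filter on dim probes, which tests more probes, 2314 scaled to the mean of the 8 genes, 2052 to Rpl13a, 1782 to Nono, and 1412 to 4672 with an array left out. Median scaling leaves any ratio unchanged and is among the alternatives. Gusb over Tbp kept its call in 9 of 18 alternatives. It was lost with quantile normalization (0.55, adjusted p = 0.0626), the replicate block (0.70, adjusted p = 0.116), the scan block (0.75, adjusted p = 0.0847), which equals leaving out EAE 3, and each array left out (0.60 to 0.77, limma). The turned ratio was called with the trend and robust prior (-0.70, adjusted p = 0.0474) and the filter on all 6 arrays (-0.70, adjusted p = 0.0497). With the replicate block 0 of the 8 genes and 3740 probes were called, 2177 higher and 1563 lower (58.2% higher). Arrays with the same number had deviations correlated at 0.15, 0.04 and -0.14, so no pairing by number was assumed. All spots of the 8 genes were well above background.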
